A study of Homo sapiens with 4 samples.

Results

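The IL6 family genes followed here are the cytokines IL6, IL11, LIF and CLCF1, the cytokine-binding receptors IL6R and IL11RA, the signal-transducing receptors IL6ST, LIFR and OSMR, and the feedback inhibitor SOCS3. They were taken by gene symbol from a table of RNA-seq read counts for 63241 genes, in which 10 of 10 symbols were found, each as 1 row. The cells were FT190, immortalised human epithelial cells whose labels say ovarian and which are known as a fallopian tube secretory line, with genotype WT in every library. The tested libraries, 2 in number, came from cells expressing a short hairpin RNA against SMARCA4 (shSMARCA4, hairpin treatment SMARCA4_sh1), an ATPase that drives SWI/SNF (BAF) chromatin remodelling. They were compared with 2 libraries from cells carrying the PLKO control vector (Ctrl). The labels name 1 hairpin, so an effect of lower SMARCA4 and an effect of that hairpin on other transcripts cannot be told apart. Whether replicates were separate cultures is not stated, and the p-values below then reflect library-to-library spread that may be technical.

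Most IL6 family cytokines share the receptor subunit IL6ST, also called gp130. IL6 and IL11 first bind their own receptor, IL6R or IL11RA, and then recruit IL6ST, whereas LIF signals through IL6ST paired with LIFR, as does CLCF1 once bound to its own receptor CNTFR, and oncostatin M through IL6ST paired with OSMR or LIFR. The paired receptors activate JAK kinases and, above all, the transcription factor STAT3, which induces SOCS3, an inhibitor that binds IL6ST and damps further signalling. Epithelial and stromal cells of many tissues secrete IL6, IL11 and LIF, and these cytokines are known from inflammation, wound repair and epithelial tumours.

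Total counts were 28536665 and 27137414 in the shSMARCA4 libraries and 33641343 and 32618516 in the Ctrl libraries. SMARCA4 itself stood at 34.0 and 36.3 CPM (counts per 1000000 reads of the kept genes, scaled by trimmed means of M values) in shSMARCA4 cells, against 171 and 162 CPM in Ctrl cells. The epithelial markers KRT7, KRT8, KRT18 and PAX8 were all above 50 CPM in every library, while CDH1 lay between 3.41 and 4.70 CPM, and EPCAM and KRT19 lay below 1 CPM in every library. Of 8 fibroblast markers, 5 reached 1 CPM in each library, with a summed level of 1846 and 1984 CPM in shSMARCA4 cells and 2454 and 2510 CPM in Ctrl cells, and DCN at 0 in 3 of the 4 libraries. Most of that sum was COL1A1, at 1540 and 1663 CPM in shSMARCA4 cells and 1968 and 2004 CPM in Ctrl cells. COL1A2 had 4 and 1 reads in the shSMARCA4 libraries and 10 and 9 in the Ctrl libraries. Of the 7 immune markers, CD3E, MS4A1, LYZ, CD14 and PTPRC lay near or below 1 CPM and MS4A1 was at 0 in every library. The summed immune level was 26.7 and 28.3 CPM in shSMARCA4 cells and 25.3 and 28.0 CPM in Ctrl cells, most of it from CD68. The 5 endothelial markers summed to between 0.963 and 1.23 CPM in any library. Of the markers tested, 4 of 6 fibroblast and 3 of 6 epithelial genes fell and 0 of either list rose. Among all genes tested, 15.8% fell and 13.8% rose. Of 4 immune markers tested, CSF1R rose (log2 fold change 0.51, adjusted p = 0.0417 by edgeR), CD14, with 3 reads in each shSMARCA4 library and 13 and 14 in the Ctrl libraries, fell (-1.93, adjusted p = 0.0168 by edgeR) and 2 did not pass. Their part in the results below was not tested. In such bulk samples, fewer cells of a type and less RNA per cell cannot be told apart.

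The start regions of IL6 and IL11 are shown because these were the cytokines with the largest changes, in opposite directions. Each line gives the 250 bases before the RefSeq start site (build GRCh38.p14), read 5′ to 3′ on the strand of the gene, with motif matches in capitals. The IL6 window is chr7:22726950-22727199 on the plus strand and the IL11 window chr19:55370464-55370713 on the minus strand.
IL6: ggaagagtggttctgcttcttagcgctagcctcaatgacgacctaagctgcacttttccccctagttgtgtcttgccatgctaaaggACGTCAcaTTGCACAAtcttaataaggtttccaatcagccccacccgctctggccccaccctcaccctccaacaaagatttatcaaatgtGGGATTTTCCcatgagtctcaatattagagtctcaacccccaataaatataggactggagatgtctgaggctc
IL11: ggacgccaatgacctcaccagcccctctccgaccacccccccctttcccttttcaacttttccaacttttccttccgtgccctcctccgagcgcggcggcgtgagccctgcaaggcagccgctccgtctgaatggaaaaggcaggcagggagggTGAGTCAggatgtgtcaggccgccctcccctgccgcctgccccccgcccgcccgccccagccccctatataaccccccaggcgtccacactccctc
Capitals mark a CRE half-site (TGACGT, here as its reverse complement ACGTCA), a C/EBP match (TTGCNCAA) and a kappaB match (GGG, any 2 bases, then TTTCC) in IL6, and an AP-1 match (TGANTCA) in IL11. Each motif, and a STAT motif (TTCNNNGAA), was searched on both strands, and no matches overlapped in these windows. Among 35114 RefSeq windows of the same length, the CRE half-site occurred in 7.1%, the C/EBP motif in 2.27%, kappaB in 1.73%, AP-1 in 6.57% and the STAT motif in 6.57%. RefSeq windows were found for 8 of the 10 genes. No match to any of the 5 motifs was present in the windows of IL6R, IL6ST, OSMR, IL11RA and SOCS3, or in that of LIFR at the start used by the count table. The 2 other LIFR starts each held 1 STAT match. The SOCS3 windows belong to RefSeq start sites 410 and 848 bases from the start used by the count table. Neither covers the 250 bases before that start, so those bases were not searched. The motifs were chosen with the results known, and a match describes letters in the window, not a bound site. The IL6 transcript of the count table starts 1316 bases before the RefSeq start site, and that of IL11 starts at it.

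Of the 10 genes, 4 rose in shSMARCA4 cells (IL6, IL11RA, IL6R and OSMR), 3 fell (IL11, LIFR and IL6ST) and 3 did not pass the test (LIF, CLCF1 and SOCS3). The test was the quasi-likelihood test of edgeR, with p-values adjusted over all 18781 genes tested (Benjamini-Hochberg) and a threshold of 0.05. The same test called 29.7% of all genes tested, 13.8% higher and 15.8% lower. The median log2 fold change of the 10 genes was -0.02, and that of all genes tested was 0.00 to 2 decimals. Groups did not overlap for 9 of the 10 genes, SOCS3 being the exception, against 65.9% of all genes tested. All 10 genes passed the filter on low counts.

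**Figure D1:**
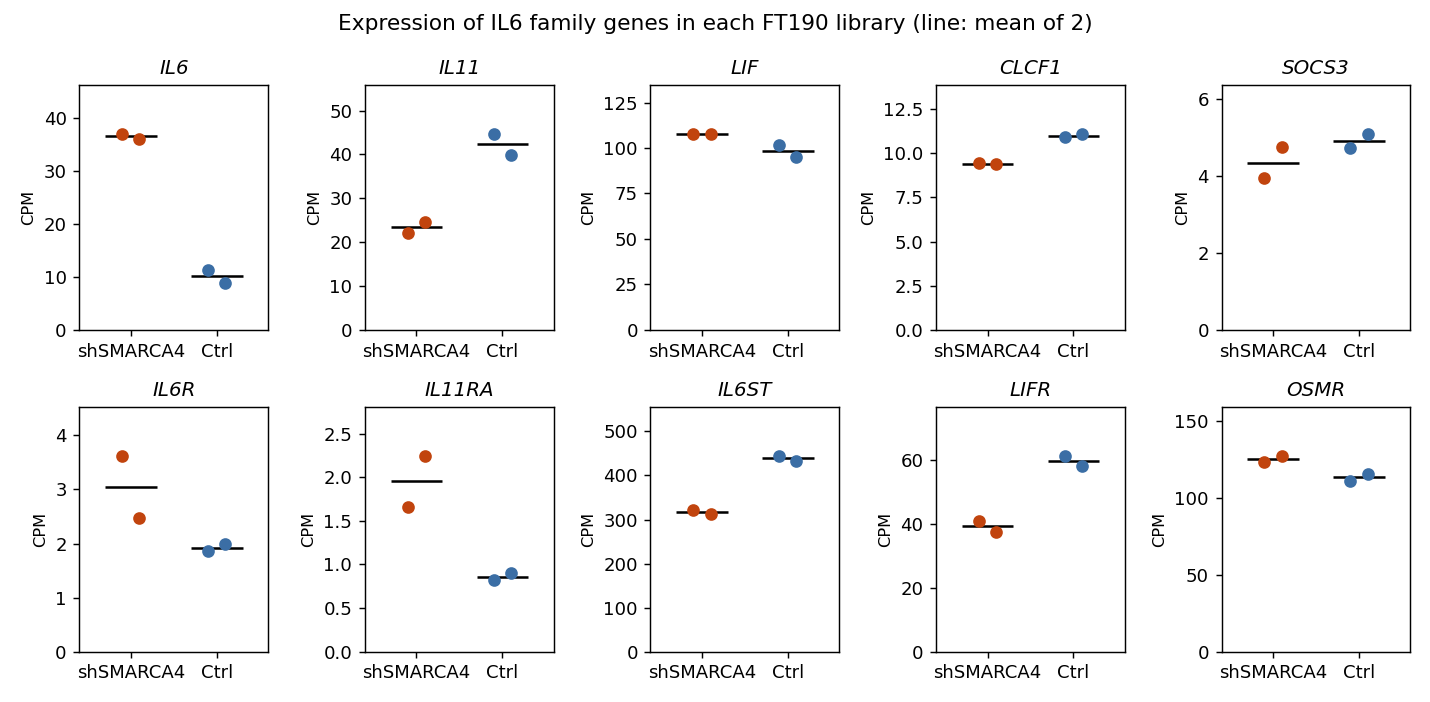
CPM of the 10 genes in each library, with shSMARCA4 left of Ctrl; points are libraries, lines the mean of 2, and each axis starts at 0. IL6 sits at 36.1 to 37.0 CPM in shSMARCA4 cells and at 8.93 to 11.2 CPM in Ctrl cells, while IL11, IL6ST and LIFR sit lower in shSMARCA4 cells.

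The cytokine IL6, the founding ligand of the family and an inducer of the acute-phase response, showed the largest change of the 10. It had 37.0 and 36.1 CPM in the shSMARCA4 libraries, against 11.2 and 8.93 CPM in the Ctrl libraries, from 1072, 996, 369 and 288 reads in that order. Both shSMARCA4 libraries lay above both Ctrl libraries, and the Ctrl libraries differed from each other by more than the shSMARCA4 libraries did. Its log2 fold change was 1.86 (SE 0.096, adjusted p = 6.36e-06 by edgeR), a 3.62-fold higher level with means of 36.5 ± 0.650 CPM in shSMARCA4 cells and 10.1 ± 1.64 CPM in Ctrl cells (SD, n = 2 each). IL6 ranked 25 by rise among the 18781 genes tested.

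The IL6 count (ENSG00000136244.12, chromosome 7, 22725884 to 22732002, plus strand, hg38) shares its locus with IL6-AS1 and STEAP1B, both on the opposite strand. The authors counted reads of both strands, so reads in shared exons cannot be assigned to a strand. In GENCODE release 29, 428 of the 1527 exon bases of the IL6 transcript also lie in exons of IL6-AS1, and 46 lie in those of STEAP1B. The counts used release 45, with an IL6 exon length of 1516 bases, so the overlap there may differ. IL6-AS1 rose as well (log2 fold change 1.52, SE 0.20, adjusted p = 6.18e-04 by edgeR), with 100 and 78 reads in the shSMARCA4 libraries and 36 and 35 in the Ctrl libraries. STEAP1B had 105 and 69 reads in the shSMARCA4 libraries and 42 and 38 in the Ctrl libraries (log2 fold change 1.32, SE 0.23, adjusted p = 2.80e-03 by edgeR). Both neighbours together held fewer reads than IL6 in every library, and their part in the IL6 count was not tested.

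IL11, a cytokine of stromal and epithelial cells linked to fibrosis, moved the other way. It had 22.0 and 24.7 CPM in the shSMARCA4 libraries, against 44.7 and 39.9 CPM in the Ctrl libraries. The groups did not overlap, and the gap between them was several times the gap within either group. In log2 terms the fold change was -0.86 (SE 0.077, adjusted p = 8.88e-05 by edgeR), from means of 23.3 ± 1.87 CPM in shSMARCA4 cells and 42.3 ± 3.38 CPM in Ctrl cells (SD, n = 2 each). No other gene of the count table overlaps IL11 (ENSG00000095752.7, chromosome 19, 55364382 to 55370463 on the minus strand).

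LIF, known for its roles in embryo implantation and stem cell self-renewal, was the most abundant of the 4 cytokines in both groups. It had 107.7 CPM in each shSMARCA4 library, against 101.8 and 94.9 CPM in the Ctrl libraries. The groups did not overlap, but the difference was small and the test was not passed (log2 fold change 0.13, 95% interval 0.02 to 0.24, adjusted p = 0.0660 by edgeR). It passed under 5 of the 13 alternatives, among them upper-quartile factors, library totals, protein-coding genes alone and leaving out Ctrl library 1, where the adjusted p was as low as 2.69e-04 and the log2 fold change was 0.19. Over all 13 alternatives its adjusted p ranged up to 0.266. LIF-AS2, on the opposite strand, held 252 and 239 reads in the shSMARCA4 libraries and 274 and 225 in the Ctrl libraries, against 3119 and 2974 reads for LIF in shSMARCA4 cells and 3340 and 3062 in Ctrl cells.

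CLCF1, a cytokine that acts on neurons and B cells, had 9.42 and 9.38 CPM in the shSMARCA4 libraries and 10.9 and 11.1 CPM in the Ctrl libraries. Each group was tight and both shSMARCA4 values were lower, without passing the test (log2 fold change -0.23, 95% interval -0.43 to -0.02, adjusted p = 0.0880 by edgeR). The locus is covered on the same strand by the longer gene ENSG00000256514, with 206 and 217 reads in the shSMARCA4 libraries and 288 and 312 in the Ctrl libraries. The division of reads between the 2 genes is therefore uncertain. CNTFR, the binding receptor of CLCF1, had 1 read over the 4 libraries.

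The shares of IL6 and IL11 in the cytokine make-up differed in opposite directions. Levels are compared between genes as CPM per kilobase of exon, since longer transcripts give more reads. Per kilobase, the ratio of IL6 to IL11 was 2.63 and 2.29 in the shSMARCA4 libraries and 0.394 and 0.350 in the Ctrl libraries, a ratio within a library that no scaling factor enters. Of the summed CPM per kilobase of the 4 cytokines, IL6 made up 36.4% and 35.2% in the shSMARCA4 libraries and 12.6% and 10.9% in the Ctrl libraries. IL11 made up 13.9% and 15.4% in shSMARCA4 cells and 31.9% and 31.3% in Ctrl cells. The sum itself was 67.1 and 67.6 CPM per kilobase in shSMARCA4 cells and 59.0 and 53.8 in Ctrl cells. With 2 libraries against 2, an exact permutation test cannot go below p = 0.33, so these shares carry no test.

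**Figure D2:**
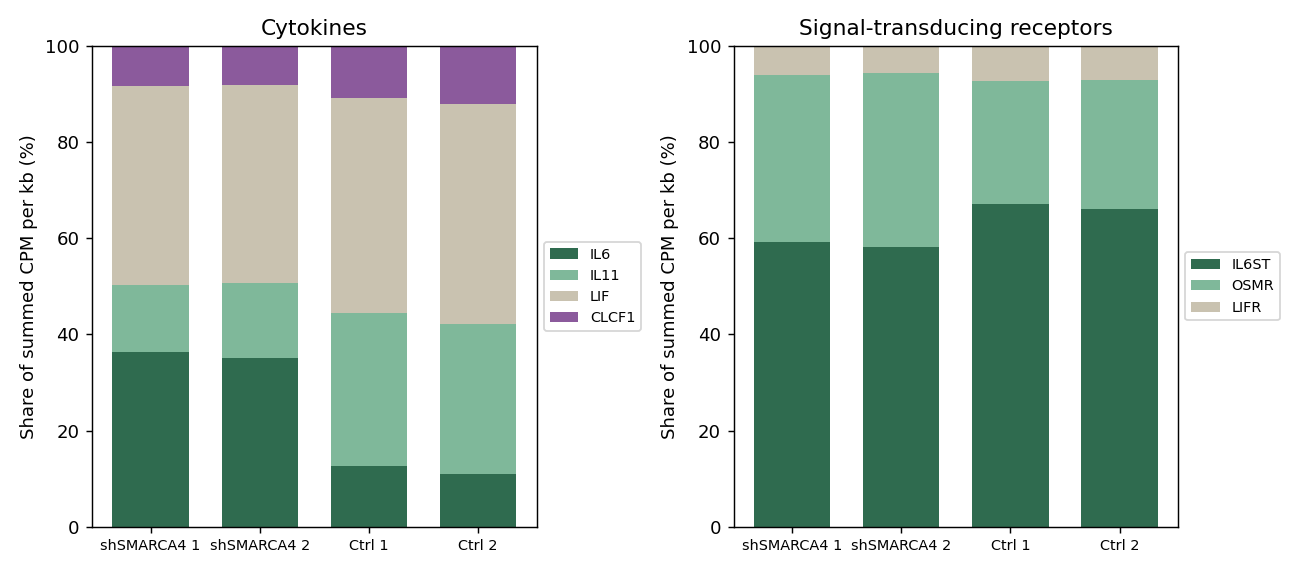
Share of the summed CPM per kilobase that each cytokine (left) and each signal-transducing receptor (right) took in each library, in percent, with the shSMARCA4 libraries left of the Ctrl libraries. IL6 takes 36.4% and 35.2% of the cytokine sum in shSMARCA4 cells against 12.6% and 10.9% in Ctrl cells, and IL6ST takes 59.2% and 58.2% of the receptor sum against 67.1% and 66.1%.

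IL6R, which binds IL6 and does not itself carry the signal inward, was the least abundant of the 10 genes per kilobase in both groups. It had 3.62 and 2.46 CPM in the shSMARCA4 libraries and 1.86 and 1.98 CPM in the Ctrl libraries, from 105, 68, 61 and 64 reads. Both shSMARCA4 values were higher, but they lay far apart from each other. The log2 fold change of 0.67 (SE 0.21, adjusted p = 0.0430 by edgeR) passed narrowly. IL6R was not called by limma-voom or DESeq2, without a low-count filter or without shSMARCA4 library 1, and in that last fit the log2 fold change was 0.37 and the adjusted p = 0.391 by edgeR. The adjusted p ranged from 1.63e-03 to 0.391 over the alternatives.

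IL11RA, the binding receptor of IL11, rose from a low base. It had 1.66 and 2.25 CPM in the shSMARCA4 libraries and 0.823 and 0.899 CPM in the Ctrl libraries, from 48, 62, 27 and 29 reads. The log2 fold change was 1.17 (SE 0.25, adjusted p = 6.95e-03 by edgeR), past the test under all 13 alternatives, with values between 0.94 and 1.39. All of IL11RA lies inside the gene ENSG00000258728 on the same strand, which had 144 and 172 reads in the shSMARCA4 libraries and 161 and 156 in the Ctrl libraries without passing (adjusted p = 0.329 by edgeR). How shared reads were divided between these genes is not given in the sources used here, so the IL11RA value is uncertain. The ligand IL11 and its receptor thus had log2 fold changes of opposite sign, -0.86 and 1.17.

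IL6ST, the shared signal transducer, had the highest level per kilobase of the 10 genes in both groups and was lower in shSMARCA4 cells. It had 321 and 311 CPM in the shSMARCA4 libraries, against 445 and 433 CPM in the Ctrl libraries. The libraries of each group lay close together and the groups were well apart. The log2 fold change was -0.47 (SE 0.039, adjusted p = 5.78e-05 by edgeR), or 1.39-fold lower. The opposite-strand gene ENSG00000262211 overlaps IL6ST by 5078 bases of its span and fell by a like amount (log2 fold change -0.43, SE 0.063, adjusted p = 1.17e-03 by edgeR), at 749 and 765 reads in shSMARCA4 cells and 1144 and 1196 in Ctrl cells. These are few beside the 9291 and 8597 reads of IL6ST in shSMARCA4 cells and 14596 and 13971 in Ctrl cells, and without strand the 2 genes cannot be fully told apart.

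LIFR, the partner of IL6ST for LIF and CLCF1, was lower as well. It had 41.1 and 37.5 CPM in the shSMARCA4 libraries and 61.5 and 58.1 CPM in the Ctrl libraries. No library of either group came near the other group. This gave a log2 fold change of -0.60 (SE 0.059, adjusted p = 1.32e-04 by edgeR), 1.52-fold lower. The count table holds no gene overlapping LIFR.

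OSMR, the partner of IL6ST for oncostatin M, did not fall with the other 2 signal-transducing receptors. It had 123 and 127 CPM in the shSMARCA4 libraries and 111 and 115 CPM in the Ctrl libraries. The groups did not overlap, with a small gap. This gave a log2 fold change of 0.15 (SE 0.044, adjusted p = 0.0332 by edgeR), a 1.11-fold higher level. OSMR was not called by DESeq2, without a low-count filter or without either shSMARCA4 library (adjusted p = 0.103 without library 1 and 0.302 without library 2, by edgeR). Its adjusted p ranged from 5.28e-04 to 0.302 over the alternatives.

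OSMR and LIFR lie near each other on chromosome 5, OSMR at 38846012 to 38935641 on the plus strand and LIFR at 38474668 to 38556646 on the minus strand, with IL6ST at 55936650 to 55995022 on the minus strand of the same chromosome. Per kilobase, the ratio of IL6ST to OSMR was 1.71 and 1.61 in the shSMARCA4 libraries and 2.63 and 2.46 in the Ctrl libraries. The ratio of LIFR to OSMR was 0.174 and 0.154 in shSMARCA4 cells and 0.289 and 0.263 in Ctrl cells. The ratio of IL6ST to LIFR was closer between groups, at 9.79 and 10.4 in shSMARCA4 cells and 9.08 and 9.35 in Ctrl cells. The 3 transducing receptors together summed to 64.6 and 63.9 CPM per kilobase in shSMARCA4 cells and 79.2 and 78.2 in Ctrl cells, and OSMR made up 34.7% and 36.2% of that sum in shSMARCA4 cells against 25.5% and 26.9% in Ctrl cells. The ratio of IL6ST to IL6R was 60.7 and 86.7 in shSMARCA4 cells and 164 and 150 in Ctrl cells. IL6R had only 105 and 68 reads in the shSMARCA4 libraries and 61 and 64 in the Ctrl libraries, so that ratio is imprecise.

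SOCS3, the STAT3-induced inhibitor of IL6ST, was low in both groups and did not differ detectably. It had 3.93 and 4.75 CPM in the shSMARCA4 libraries and 4.73 and 5.08 CPM in the Ctrl libraries, from 114, 131, 155 and 164 reads. This was the only one of the 10 genes whose groups overlapped. The log2 fold change was -0.18, with a 95% interval of -0.50 to 0.14 and adjusted p = 0.384 by edgeR, and no alternative brought it past the test (adjusted p of 0.266 or more in all 13). A p that misses the threshold does not show that SOCS3 stayed level.

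**Figure D3:**
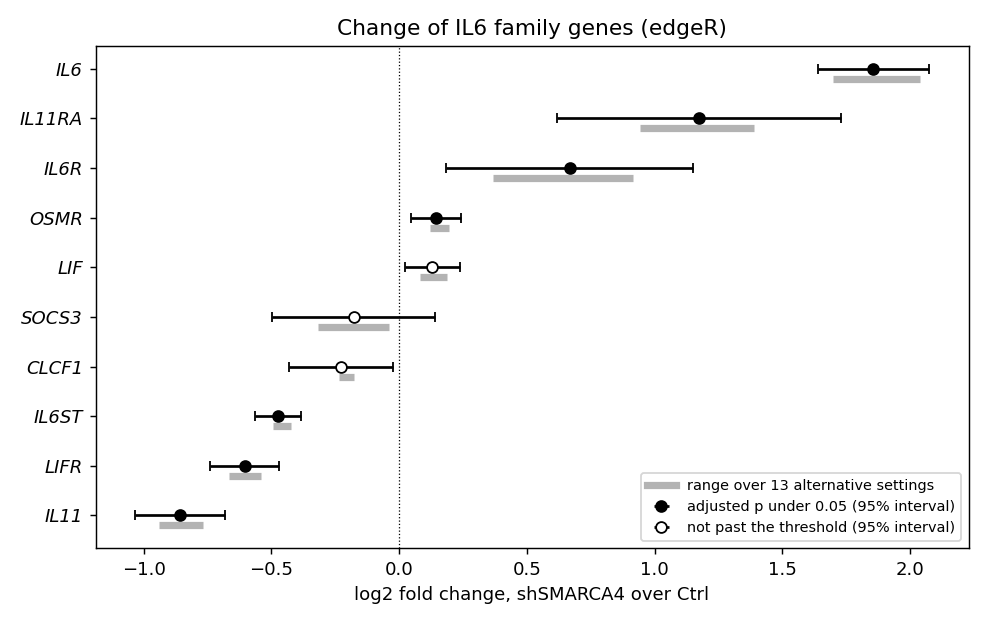
Log2 fold change of the 10 genes, shSMARCA4 over Ctrl, with 95% intervals from edgeR (filled points: adjusted p under 0.05) and, in grey, the range over 13 alternative settings. IL6 lies at 1.86 and IL11 at -0.86, and only the SOCS3 interval crosses 0.

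In level per kilobase, the order in shSMARCA4 cells was IL6ST (37.7, mean of 2), LIF (27.9), IL6 (24.1), OSMR (22.8), IL11 (9.85), CLCF1 (5.53), LIFR (3.74), SOCS3 (1.59), IL11RA (0.882) and IL6R (0.530). In Ctrl cells it was IL6ST (52.4), LIF (25.4), OSMR (20.6), IL11 (17.8), IL6 (6.65), CLCF1 (6.47), LIFR (5.69), SOCS3 (1.80), IL11RA (0.389) and IL6R (0.334). IL6 thus had place 3 in shSMARCA4 cells and place 5 in Ctrl cells. In Ctrl cells the libraries of IL6 (7.42 and 5.89) spanned those of CLCF1 (6.42 and 6.53) and came next to those of LIFR (5.85 and 5.53), so IL6 and CLCF1 were not separable there. In shSMARCA4 cells no neighbours in the order overlapped. Among all genes tested, IL6ST lay at percentile 92.7 of level per kilobase in Ctrl cells, LIF at 84.3, IL6 at 56.6 and IL6R at 9.37.

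**Figure D4:**
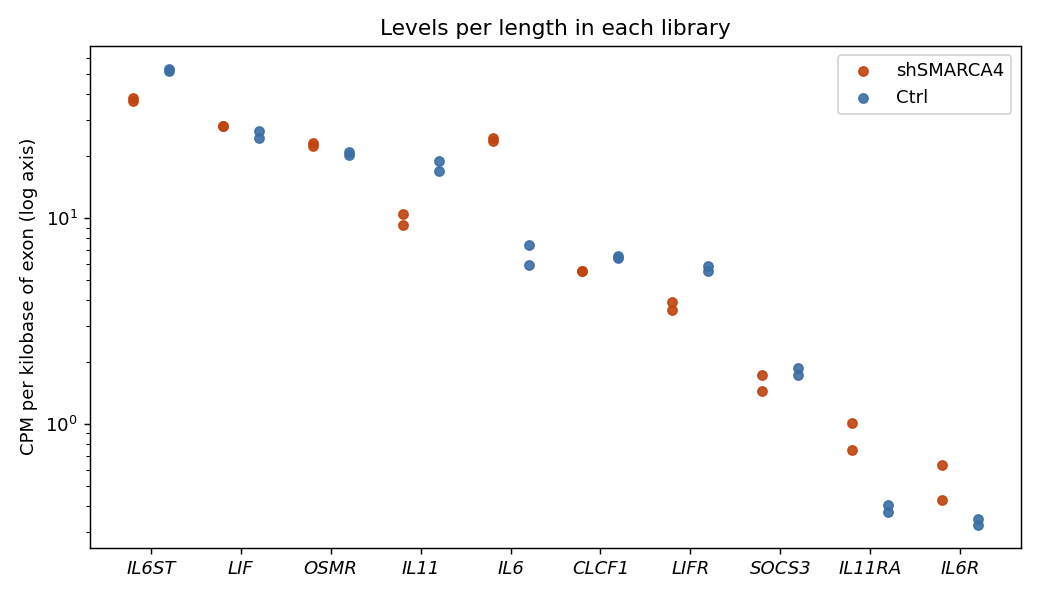
CPM per kilobase of exon (log axis) of the 10 genes in each library, ordered by the Ctrl mean, with shSMARCA4 points left of Ctrl points. IL6 moves above OSMR in shSMARCA4 cells, and the binding receptors IL6R and IL11RA stay near or below 1.

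Other ligands of the family were low or without reads. OSM, IL27 and IL31 had 0 reads in every library and were not tested, and a count of 0 allows up to 3 reads, or 0.0892 to 0.111 CPM of the library total, by counting error alone. Of the 3 that were tested, CTF1, a cardiac hypertrophy factor, fell (log2 fold change -0.84, SE 0.24, adjusted p = 0.0270 by edgeR) at 0.759 and 0.942 CPM in shSMARCA4 cells and 1.55 and 1.49 CPM in Ctrl cells. CTF1 was not called by DESeq2, without a low-count filter or without shSMARCA4 library 1. CNTF and EBI3 did not pass. Of the other receptors, CNTFR had 1 read in all, and IL27RA and IL31RA, which bind IL27 and IL31, both rose (2 of 2 tested). The shares over all genes tested were 13.8% higher and 15.8% lower. IL27RA had 26.7 and 25.4 CPM in shSMARCA4 cells and 15.9 and 16.9 CPM in Ctrl cells (log2 fold change 0.66, SE 0.071, adjusted p = 2.10e-04 by edgeR). IL31RA had 3.35 and 3.40 CPM in shSMARCA4 cells and 1.92 and 2.01 CPM in Ctrl cells (log2 fold change 0.78, SE 0.16, adjusted p = 6.07e-03 by edgeR).

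Among 10 signal transducers below the receptors, 4 rose, 2 fell and 4 did not pass, with a median log2 fold change of 0.13. For all genes tested, 13.8% were higher and 15.8% lower, and the median was -0.0045. JAK1, the main kinase bound to IL6ST, had 365.4 and 364.9 CPM in shSMARCA4 cells and 259 and 279 CPM in Ctrl cells (log2 fold change 0.44, SE 0.045, adjusted p = 1.77e-04 by edgeR). JAK2 (0.50 ± 0.088, log2 fold change with SE here and below), SHC1 (0.18 ± 0.046) and TYK2 (0.20 ± 0.057) also rose. The adaptors GRB2 (-0.19 ± 0.042) and GAB1 (-0.34 ± 0.11), which link receptors to RAS and ERK, fell. By edgeR, GRB2 was not called without shSMARCA4 library 1 (adjusted p = 0.184) and SHC1 not without shSMARCA4 library 2 (adjusted p = 0.219). TYK2 was not called without shSMARCA4 library 1 or 2 (adjusted p = 0.0727 and 0.0776 by edgeR). GAB1 was not called without shSMARCA4 library 1 or 2 or Ctrl library 2 (adjusted p = 0.191, 0.0812 and 0.110 by edgeR). DESeq2 called neither TYK2 nor GAB1, and without a low-count filter SHC1, TYK2 and GAB1 were not called (adjusted p = 0.0641, 0.115 and 0.118 by edgeR). GAB1 also missed the threshold with upper-quartile factors (adjusted p = 0.0519 by edgeR) and library totals (0.0737), so its call was lost in 7 of the 13 alternatives. The log2 fold change of TYK2 was 0.13 without Ctrl library 1. STAT3, the main transcription factor of the pathway, had 103 and 112 CPM in shSMARCA4 cells and 110 and 109 CPM in Ctrl cells (log2 fold change -0.03, 95% interval -0.15 to 0.08, adjusted p = 0.670 by edgeR), and its sign differed with library totals and without shSMARCA4 library 1. The sheddases ADAM10 (0.25 ± 0.038) and ADAM17 (0.27 ± 0.048), which can release IL6R from the membrane, both rose (2 of 2).

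Of 12 other negative regulators, 2 rose, 3 fell and 7 did not pass, against 13.8% higher and 15.8% lower among all genes tested. The phosphatase PTPN2 (0.38 ± 0.046) and SOCS6 (0.35 ± 0.048) rose, and SOCS4 (-0.18 ± 0.041), CISH (-1.23 ± 0.31) and PTPN1 (-0.16 ± 0.044) fell. CISH, a STAT5-induced relative of SOCS3, was scarce, at 0.483 and 0.362 CPM in shSMARCA4 cells and 0.945 and 1.05 CPM in Ctrl cells. The CISH call was lost without shSMARCA4 library 2, and CISH had no adjusted p with DESeq2 or with the filter at 1 CPM. SOCS4 and PTPN1 were not called by DESeq2, without a low-count filter or without either shSMARCA4 library. PTPN1 was also not called with library totals (adjusted p = 0.0666 by edgeR). SOCS1 stood at 0.794 and 0.507 CPM in shSMARCA4 cells and 0.335 and 0.310 CPM in Ctrl cells and did not pass (adjusted p = 0.0763 by edgeR).

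Genes known as STAT3 targets moved in both directions. Of 26 on the list 21 were tested, of which 6 rose, 4 fell and 11 did not pass, with a median log2 fold change of -0.03. Over all genes tested, 13.8% rose and 15.8% fell. MYC (0.70 ± 0.049), the chemokine CCL2 (1.20 ± 0.13) and the adhesion molecule ICAM1 (0.29 ± 0.056) rose, as did IER3 (0.20 ± 0.050), NNMT (0.24 ± 0.064) and VEGFA (0.28 ± 0.083). IER3, NNMT and VEGFA each lost their call in 2 of the 13 alternatives. The AP-1 subunit JUNB (-0.37 ± 0.058), the repressor BCL6 (-0.66 ± 0.15), the kinase PIM1 (-0.36 ± 0.10) and HIF1A (-0.12 ± 0.036) fell. BCL6 was not called without a low-count filter (adjusted p = 0.0701 by edgeR), and its log2 fold change was -0.42 without Ctrl library 2. PIM1 was not called without a low-count filter (adjusted p = 0.116 by edgeR), nor without Ctrl library 2 or shSMARCA4 library 1 (adjusted p = 0.0505 and 0.0624 by edgeR). HIF1A was not called by DESeq2, with library totals, without a low-count filter, or without shSMARCA4 library 1 or 2 (adjusted p = 0.323 and 0.299 by edgeR without them). The liver acute-phase genes HP, LBP and FGG had 0 reads in every library. CCL2, ICAM1 and MYC are also targets of other pathways, among them NF-kB. Of 13 factors acting on IL6 transcription or on the decay of its mRNA, 3 rose and 2 fell. Those that rose were ZFP36L1 (0.30 ± 0.038, adjusted p = 5.48e-04 by edgeR), ZFP36L2 (0.38 ± 0.079, adjusted p = 7.05e-03 by edgeR) and NFKB1 (0.19 ± 0.046). Those that fell were the endoribonuclease ZC3H12A, also called Regnase-1 (-0.63 ± 0.12, adjusted p = 4.02e-03 by edgeR), and the roquin paralog RC3H2 (-0.43 ± 0.053, adjusted p = 4.40e-04 by edgeR). NFKB1 was not called by DESeq2 (adjusted p = 0.0664), without a low-count filter (adjusted p = 0.0707 by edgeR) or without shSMARCA4 library 1 or 2 (adjusted p = 0.123 and 0.0625 by edgeR). ZC3H12A had 6.35 and 6.85 CPM in shSMARCA4 cells and 9.36 and 11.1 CPM in Ctrl cells. ZFP36L1 had 271.8 and 271.6 CPM in shSMARCA4 cells and 219.9 and 222.5 CPM in Ctrl cells. The part of these factors in the IL6 level was not tested. RELA (0.05 ± 0.047) and CEBPB (-0.19 ± 0.073) did not pass, although CEBPB was called without Ctrl library 1 (adjusted p = 4.84e-03 by edgeR).

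**Figure D5:**
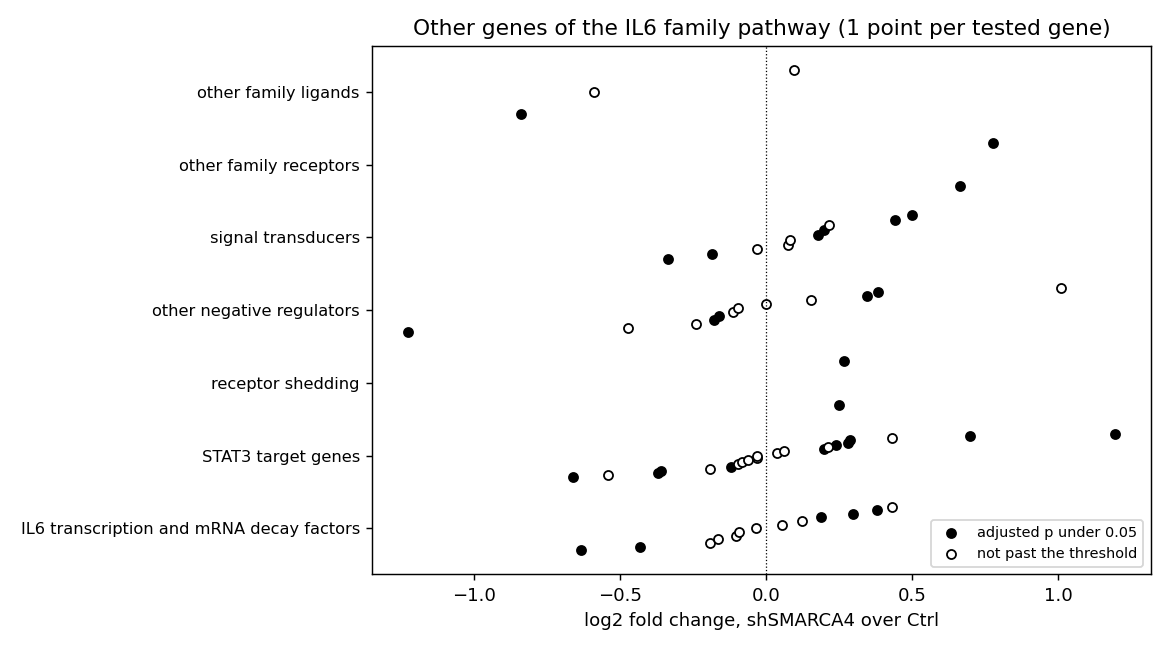
Log2 fold change, shSMARCA4 over Ctrl, of each tested gene of 7 pathway lists (1 point per gene, filled where the adjusted p by edgeR was under 0.05). Both tested receptors and both sheddases lie above 0, while STAT3 targets spread from BCL6 at -0.66 to CCL2 at 1.20.

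Protein-coding genes averaging 5 CPM or more (10878 genes) were ranked by how near their centred log2 CPM over the 4 libraries lay to those of IL6 and of IL11. Nearest to IL6 were the nucleotide kinase CMPK2 (Euclidean distance 0.41 on the log2 scale), the hyaluronan-degrading factor CEMIP (0.43) and the hyaluronan synthase HAS2 (0.50). CEMIP had 25.4 and 27.7 CPM in shSMARCA4 cells and 7.23 and 8.65 CPM in Ctrl cells. Nearest to IL11 were KALRN (0.05), the actin-bundling protein FSCN1 (0.06) and the caveolar protein CAVIN2 (0.07). FSCN1 had 85.0 and 91.4 CPM in shSMARCA4 cells and 163 and 144 CPM in Ctrl cells. Such likeness over 4 libraries in 2 groups describes mainly the size of the group difference.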

How the data were processed

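Per the labels' protocols, total RNA was made into libraries with a SMARTer mRNA kit. The authors deposited raw counts for each gene, taken with HOMER over exons of GENCODE release 45 on hg38, on both strands and with 1 transcript per gene, per the file headers. Reads were aligned with STAR 2.6.1c, per the submitters' processing notes. Of 6 libraries in the header's command, the 4 in the table were used. The exon length used for values per kilobase is the deposited length column.

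Groups came from the sample titles. The members and gene lists were chosen with earlier results of these data known, and some listed genes are not reported here. Genes were kept by filterByExpr (count minimum 10), 18781 of 63241, scaled by trimmed means of M values and tested with edgeR 4.0.16 (quasi-likelihood, two-sided, Benjamini-Hochberg, threshold 0.05) in R 4.3.3. The biological coefficient of variation was 0.0413. SE is the absolute log2 fold change over the square root of F, and 95% intervals use its degrees of freedom. Counts of replicate libraries differed beyond sampling noise (chi-square over degrees of freedom was 1.94 in shSMARCA4 and 6.93 in Ctrl). The test was checked on simulated counts.

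Named were the 10 members, SMARCA4, up to 4 called genes per list with the smallest adjusted p, genes that spell out a count of 5 or fewer, and the 3 genes nearest to IL6 and to IL11 (on log2 CPM with 0.5 added). Any others were picked with their values in view. The 13 alternatives were other scaling, filters, DESeq2 1.42.0, limma-voom (limma 3.58.1), protein-coding genes alone, the replicate block and leaving out each library.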

Additional observations from a re-analysis of the deposited data

How the results depend on the processing

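No direction of the 10 genes changed under any of the 13 alternatives. IL6, IL11, IL6ST, LIFR and IL11RA passed in all 13, and CLCF1 and SOCS3 in none. The count of 4 genes that rose was 2 with no filter on low counts, 2 with DESeq2, and 2 to 5 when a library was left out (2 without shSMARCA4 library 1), and the calls that differed were those of IL6R, OSMR and LIF. The count of 3 that fell was 3 throughout. STAT3, not past the test, had a log2 fold change of 0.016 with library totals and -0.10 to 0.039 when a library was left out (0.039 without shSMARCA4 library 1), and the cause was not tested. Over all genes, 2596 were higher and 2976 lower, against 1403 and 1784 with no filter, 1625 and 1930 with DESeq2, and 1724 to 3618 higher and 2077 to 3828 lower without 1 library. Genes that rose made up 46.6% of calls, and 59.5% with library totals alone, which moved the median of all genes to 0.04 (log2). Replicate numbers are shared by the groups but nothing states a pairing, and same-numbered libraries deviated with a correlation of 0.07. With the replicate block, 3187 genes were higher and 3562 lower, 5 and 3 of them among the 10, where LIF passed (adjusted p = 0.0297 by edgeR against 0.0660). When a library was left out, the lone library of its group was assumed to vary like the others. IL6R and IL11RA rest on 27 to 105 reads per library, which limits their precision.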
